A study of Homo sapiens with 10 samples.

Results

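The 9 genes of the contractile apparatus described here, ACTA2, TAGLN, CNN1, MYL9, MYLK, TPM1, TPM2, CALD1 and ACTN1, were read out of 2 RNA-seq count tables by their gene symbol. One table held 26256 genes and the other 55736, and each of the 9 genes had a row in both. The cells were MCF10A, an immortalised, non-tumorigenic line of human mammary epithelium. The first experiment compared untreated parental MCF10A with G12V cells, which are MCF10A that received oncogenic H-RAS (HRas V12) by lentivirus, together with a GFP vector to follow transduction, and were selected with hygromycin, with 2 libraries of each. The second treated parental MCF10A for 4 h with 10 µM Nutlin-3a, an inhibitor of the p53–MDM2 interaction, or with the solvent DMSO, with 3 libraries of each. All cells grew in a medium with EGF, insulin, hydrocortisone, cholera toxin and horse serum. The G12V cells are a selected population of 1 line, and parental cells without the vector were their control, so the oncogene cannot be told apart from transduction and selection.

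In mammary gland, contraction is the work of myoepithelial cells, the basal layer that squeezes milk from the alveoli. These cells carry a smooth-muscle type of actomyosin: myosin II slides along actin filaments once its regulatory light chain has been phosphorylated by myosin light-chain kinase, while tropomyosin, caldesmon and calponin on the filament set how myosin engages it and alpha-actinin crosslinks the filaments. Many of these genes are known targets of serum response factor (SRF), which binds a DNA element named the CArG box together with its coactivators myocardin (MYOCD) and the myocardin-related factors MKL1 and MKL2. Basal-type epithelial cells in culture express part of this programme.

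On hg19, as the first table gives the rows, the genes lay at chr10:90694831-90751147 on the minus strand (ACTA2), chr11:117070040-117075508 on the plus strand (TAGLN), chr19:11649532-11661138 on the plus strand (CNN1), chr20:35169887-35178226 on the plus strand (MYL9), chr15:63334838-63364113 on the plus strand (TPM1), chr9:35681990-35690053 on the minus strand (TPM2), chr7:134464164-134655480 on the plus strand (CALD1) and chr14:69340840-69446083 on the minus strand (ACTN1). The MYLK row of the first table covered chr3:123331143-123339530 on the minus strand, 8388 bases at the 3′ end of the gene, against 274284 bases in the second table. The MYLK levels of both experiments therefore do not count the same stretch. MYLK-AS1, on the opposite strand, overlapped all 8388 bases of the first row and stood at 0.409 and 1.19 CPM in MCF10A and 0.299 and 0.535 CPM in G12V. In the first table DLGAP4-AS1 (0 to 0.044 CPM) overlapped MYL9 and LOC100652768 (0.128 to 0.409 CPM) overlapped TAGLN, both on the opposite strand. The span of ACTA2 overlapped FAS, a p53 target on the opposite strand, by 860 bases in the first table. In a current annotation 380 bases, or 6.75% of the ACTA2 exon bases, also lay in FAS exons, and 1638 bases (29.1%) in exons of ACTA2-AS1, which was at 0 to 0.185 CPM in every library. The span of TAGLN overlapped PCSK7 on the opposite strand by 447 bases in the second table, and in the current annotation, whose TAGLN model is longer than the counted rows, 2233 bases or 34.09% of the TAGLN exon bases lay in PCSK7 exons. PCSK7 stood at 68.1 and 53.8 CPM in MCF10A and 44.6 and 33.1 CPM in G12V, and at 45.4 to 84.0 CPM in the second experiment. STAMBPL1, which overlapped the ACTA2 span there, stood at 15.1 to 22.5 CPM.

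RefSeq promoter windows of build GRCh38.p14 were at hand for 7 of the 9 genes, with 15 starts in all; TAGLN and MYL9 had no entry. A search of both strands of the 250 bases before each start found a CArG box in 2 of these windows, 1 of MYLK and 1 of the 4 of ACTN1. A box was counted only in the strict form CCWWWWWWGG, where W is A or T. Of all 35116 windows, 1.16% held one. The letters CATTCC or their reverse complement were in 4 of the 15 windows and in 11.89% of all windows, and TATAAA or its reverse complement in 3 of the 15 and in 10.72% of all. The ACTN1 window with the CArG box also held a CATTCC match, 154 bases before the start. The sequences below, each the 250 bases before a start, are the windows with a CArG box, in capitals, and those of TPM1 and ACTA2, the genes on which the results below turn and which have a window.
MYLK, chr3:123620549-123620798, minus strand: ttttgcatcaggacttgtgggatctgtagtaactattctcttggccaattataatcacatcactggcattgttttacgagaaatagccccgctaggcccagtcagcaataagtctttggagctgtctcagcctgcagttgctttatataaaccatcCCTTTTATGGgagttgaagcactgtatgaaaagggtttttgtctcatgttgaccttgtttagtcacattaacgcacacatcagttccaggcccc
ACTN1, chr14:68977567-68977816, minus strand: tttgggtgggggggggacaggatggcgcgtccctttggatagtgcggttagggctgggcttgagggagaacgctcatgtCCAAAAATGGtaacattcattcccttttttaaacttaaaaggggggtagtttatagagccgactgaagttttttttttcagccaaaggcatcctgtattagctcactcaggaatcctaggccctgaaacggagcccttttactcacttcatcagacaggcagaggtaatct
TPM1, chr15:63048239-63048488, plus strand: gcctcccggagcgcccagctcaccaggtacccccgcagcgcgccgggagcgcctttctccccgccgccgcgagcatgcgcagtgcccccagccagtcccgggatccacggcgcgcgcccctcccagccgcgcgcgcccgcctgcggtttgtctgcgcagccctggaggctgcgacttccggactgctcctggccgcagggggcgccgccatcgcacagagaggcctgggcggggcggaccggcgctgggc
ACTA2, chr10:88952774-88953023, minus strand: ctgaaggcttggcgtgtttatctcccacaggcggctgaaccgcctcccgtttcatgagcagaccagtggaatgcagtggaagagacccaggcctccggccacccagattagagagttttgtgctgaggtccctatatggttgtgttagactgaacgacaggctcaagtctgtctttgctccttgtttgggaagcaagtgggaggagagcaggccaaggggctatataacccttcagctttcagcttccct
ACTA2, second start, chr10:88991338-88991587, minus strand: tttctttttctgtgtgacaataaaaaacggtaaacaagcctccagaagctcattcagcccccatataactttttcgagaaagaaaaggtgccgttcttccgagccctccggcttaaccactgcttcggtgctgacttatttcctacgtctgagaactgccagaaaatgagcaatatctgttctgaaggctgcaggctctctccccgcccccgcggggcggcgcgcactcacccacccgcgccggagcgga
The CArG box began 94 bases before the start in MYLK and 171 bases before it in ACTN1. MYLK had no other window, and whether the kinase or a shorter message of the gene begins at this start was not determined. The window is on GRCh38 and the counted rows are on hg19, and it was not placed against them. The box is therefore not shown to lie before the start of the kinase message. No CArG box of the strict form was found in the windows of TPM1 and ACTA2, which says only that these letters are not in these 250 bases. The ACTA2 window at chr10:88952774-88953023 holds ccctatatgg and ccttgtttgg, which come near the strict form but do not match it and were not counted.

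Libraries of the first experiment held 21538593 to 23683975 gene counts and those of the second 15453226 to 17378734. Levels are CPM, a count divided by the scaled library size and multiplied by 1e+06, where 1 count was worth 0.0428 to 0.0455 CPM in the first experiment and 0.0553 to 0.0658 CPM in the second. The labels were checked on the targeted genes. HRAS stood at 72.6 and 65.9 CPM in MCF10A and at 631 and 515 CPM in G12V, and the p53 targets CDKN1A and MDM2 were higher in all 3 Nutlin-3a libraries than in all 3 DMSO libraries. In edgeR's quasi-likelihood test, a gene was called differentially expressed (DE) where its log2 fold change was beyond 0.5 in either direction with an adjusted p under 0.05.

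The first comparison asks how the genes differ between cells with and without oncogenic HRAS. TAGLN, MYL9, TPM1 and CALD1 were down-regulated in G12V cells, and the other tested members, ACTA2, MYLK, TPM2 and ACTN1, were not called. Of the 8 members that passed the filter on low counts, 4 fell and 0 rose, while 11.0% of the 14376 genes tested were DE and 5.95% were DE and lower. The median log2 fold change of the 8 was -0.43, against -0.0011 over all genes. In 6 of the 8 the libraries of the groups did not overlap, as in 54.8% of all genes. CNN1 (calponin 1, an inhibitor of actomyosin in smooth muscle) had 0 counts in both MCF10A libraries and in 1 G12V library and 3 counts in the other, and it was not tested; a count of 0 allows up to 3 counts.

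**Figure D1:**
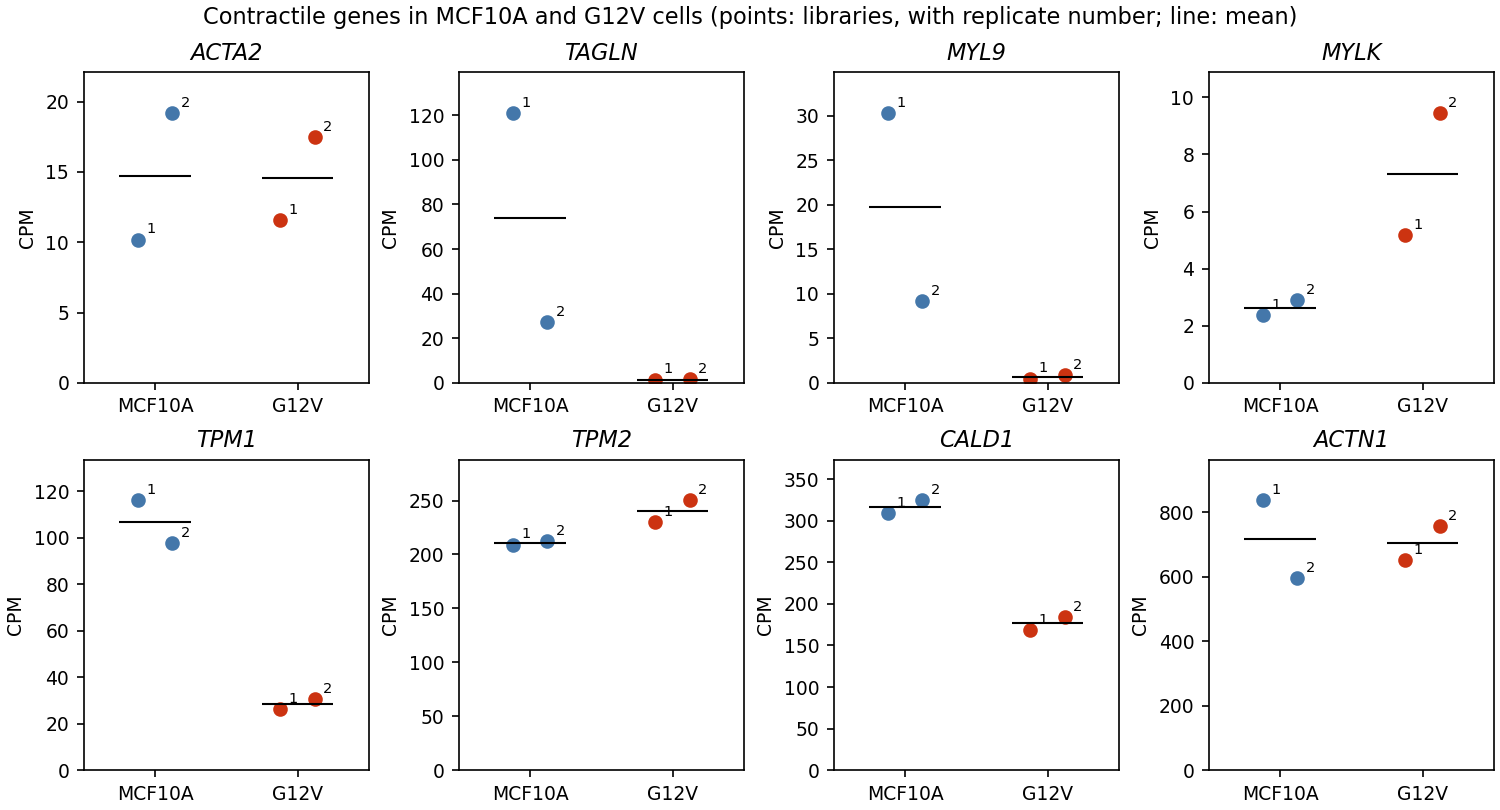
CPM (y axis, from 0, with its own scale for each gene) of the 8 tested contractile genes in the MCF10A and G12V libraries; points are libraries with their replicate number and horizontal lines are group means. TAGLN and MYL9 are near 0 in both G12V libraries, TPM1 and CALD1 are lower in both, and ACTA2 and ACTN1 overlap between the groups.

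TAGLN encodes transgelin (SM22), an actin-bundling protein and an early marker of the smooth-muscle programme. It was measured at 121 CPM in MCF10A replicate 1 and 27.1 CPM in replicate 2, and at 1.5 and 1.56 CPM in the G12V libraries. The MCF10A libraries thus lay far apart, while the G12V libraries were nearly equal and below both. The log2 fold change was -5.59 (SE 0.79, edgeR adjusted p = 0.0104), the largest fall of the 8. The G12V values rest on 35 counts in each library.

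MYL9 is the regulatory light chain that myosin light-chain kinase phosphorylates. Its levels were 30.4 and 9.21 CPM in MCF10A and 0.470 and 0.892 CPM in G12V, from 11 and 20 counts in G12V. As for TAGLN, replicate 1 of MCF10A was the higher parental library, and both G12V libraries were below both parental ones. Its log2 fold change was -4.85 (SE 0.72, edgeR adjusted p = 0.0120).

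The spread between the parental libraries was itself large for these genes. The TAGLN level of MCF10A replicate 1 was 4.46 times that of replicate 2. Of the 10557 genes compared, those with a mean of at least 5 CPM in MCF10A, 0.256% had a wider ratio. For MYL9 the ratio was 3.30, exceeded by 0.625% of these genes. When MCF10A replicate 1 was left out, no gene in the whole table was DE by edgeR (2830 genes had an unadjusted p under 0.05), and TAGLN, MYL9 and TPM1 had adjusted p of 0.0653, 0.0993 and 0.0934 with TAGLN at -4.12 and MYL9 at -3.73 on the log2 scale.

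Of the tropomyosins, which lie along the actin filament and gate myosin, TPM1 was called and TPM2 was not. TPM1 stood at 116 and 97.6 CPM in MCF10A and at 26.2 and 30.5 CPM in G12V. The groups were well apart and each pair of libraries was close. For TPM1 the log2 fold change was -1.91 (SE 0.20, edgeR adjusted p = 0.00433), the smallest adjusted p among the members. TPM2 was at 209 and 213 CPM in MCF10A and at 230 and 250 CPM in G12V, slightly higher in both G12V libraries, with a log2 fold change of 0.19 (SE 0.18, edgeR adjusted p = 0.60). TPM1 therefore stood at 55.5% and 45.9% of the TPM2 CPM in MCF10A and at 11.4% and 12.2% in G12V. The log2 ratio differed by -2.10, with a two-sided exact permutation p of 0.33, the smallest that 2 against 2 libraries can give.

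CALD1 encodes caldesmon, which binds actin and restrains myosin. Its level was 309 and 325 CPM in MCF10A and 169 and 184 CPM in G12V, lower in both G12V libraries. Its log2 fold change was -0.84 (SE 0.19, edgeR adjusted p = 0.0407). This call is near the threshold: the adjusted p was 0.0537 with no filter on low counts and 0.126 to 0.173 when any 1 library was left out, with the log2 fold change between -0.91 and -0.78.

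MYLK, the light-chain kinase, was the member that was higher in both G12V libraries by the most. Its row stood at 2.36 and 2.91 CPM in MCF10A and at 5.17 and 9.46 CPM in G12V, without overlap. The log2 fold change of 1.47 (SE 0.41) missed the threshold (edgeR adjusted p = 0.0788), and it was called by edgeR's exact test (adjusted p = 0.0152) and by DESeq2 (adjusted p = 0.0169). The row covers the 3′ end, from which a short transcript for the protein telokin is also known to arise, so kinase and telokin messages cannot be told apart here.

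ACTA2, the smooth-muscle alpha-actin and the usual marker of myoepithelium, showed no difference that could be told from the spread. It was measured at 10.2 and 19.2 CPM in MCF10A and at 11.6 and 17.5 CPM in G12V, so that both G12V libraries lay between the parental ones. The log2 fold change was -0.02 (SE 0.39, edgeR adjusted p = 0.985), and its sign changed with library totals alone as the scaling, with a filter of 1 CPM and with the replicate block, but not with the other scalings run. ACTN1, the alpha-actinin of stress fibres and focal adhesions, was at 838 and 595 CPM in MCF10A and at 651 and 758 CPM in G12V, again overlapping, with a log2 fold change of -0.02 (SE 0.26, edgeR adjusted p = 0.974) whose sign changed under another filter.

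Set per kilobase of transcript, for the 6 members whose main transcript lies inside the counted row, ACTN1 (193 ± 46.2, SD, n = 2) and TPM2 (177 ± 1.99) were the highest in MCF10A, in CPM per kilobase. They did not differ beyond their spread. TPM1 (87.8 ± 10.8) came next, then CALD1 (63.2 ± 2.24) and, well below, ACTA2 (10.9 ± 4.73), with CNN1 at 0. In MCF10A the place of TPM1 above CALD1 rests on the lengths used, 1217 and 5011 bases, since CALD1 had the higher CPM. In G12V the order of the first places was TPM2 (202 ± 12.2) and ACTN1 (189 ± 20.3), and CALD1 (35.2 ± 2.20) then stood above TPM1 (23.3 ± 2.47), ahead of ACTA2 (10.8 ± 3.09).

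Of 22 paralogs of the same proteins listed, 15 were tested, of which 1 rose, 2 fell and 12 were not called. The share called was no smaller than the 11.0% over all genes tested, and the median log2 fold change of the paralogs was -0.11. The nonmuscle actins ACTB (-0.11) and ACTG1 (0.14), transgelin-2 (TAGLN2, 0.11), the light chains MYL12A (-0.01) and MYL12B (-0.17), the tropomyosins TPM3 (-0.0018) and TPM4 (0.12) and alpha-actinin-4 (ACTN4, 0.17) had log2 fold changes smaller than their SE. The calponins differed. CNN3, an actin-binding calponin of nonmuscle cells, rose from 55.1 and 52.5 CPM to 145 and 195 CPM (log2 fold change 1.66, edgeR adjusted p = 0.0078). CNN2 fell from 342 and 392 CPM to 136 and 141 CPM (log2 fold change -1.41, edgeR adjusted p = 0.00961). MYLK4, a kinase of the MYLK family, fell from 2.45 and 4.01 CPM to 0.941 and 0.669 CPM (log2 fold change -2.0, edgeR adjusted p = 0.0424).

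**Figure D2:**
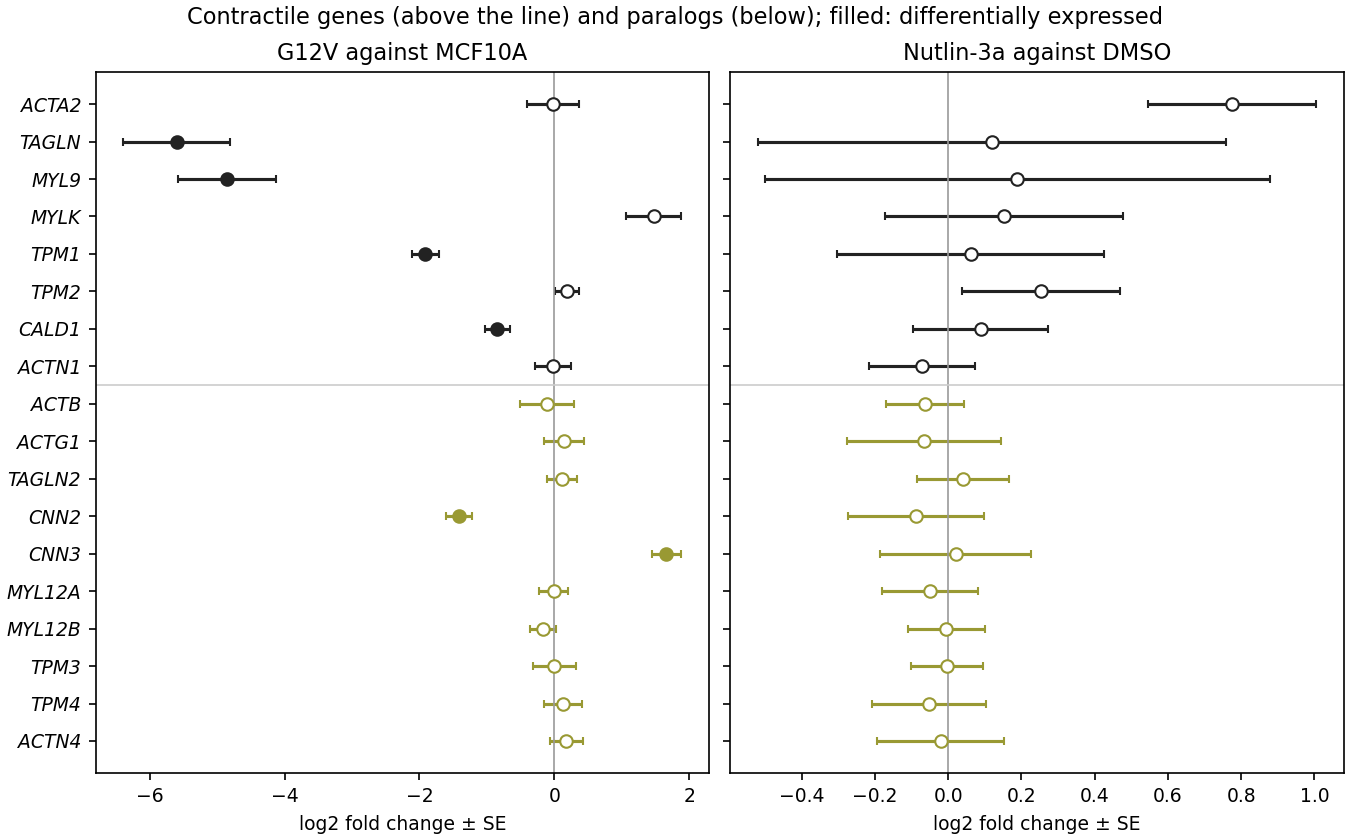
Log2 fold change (x axis, with SE as bars) of 8 contractile genes, above the line, and 10 broadly expressed paralogs, below it, in G12V against MCF10A (left) and in Nutlin-3a against DMSO (right, on its own scale); filled points were DE. TAGLN (-5.59) and MYL9 (-4.85) lie far to the left of TAGLN2 (0.11) and MYL12A (-0.01) in the left panel, and no point is filled in the right panel.

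Relative to the paralogs, TAGLN stood at 14.5% and 3.54% of the TAGLN2 CPM in MCF10A and at 0.180% and 0.175% in G12V. MYL9 stood at 6.70% and 1.89% of the summed MYL12A and MYL12B in MCF10A and at 0.121% and 0.179% in G12V. TPM1 stood at 9.39% and 12.4% of summed TPM3 and TPM4 in MCF10A and at 2.31% and 3.16% in G12V. In these 3 pairs, as in TPM1 to TPM2 and ACTN1 to ACTN4, both G12V libraries were below both parental ones. A total of 7 ratios were compared, and in these 5 of the 7 the exact permutation p was 0.33 (adjusted 0.467), the least this design allows. The ratios of ACTA2 to ACTB plus ACTG1 and of TPM2 to TPM3 plus TPM4 overlapped between the groups.

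**Figure D3:**
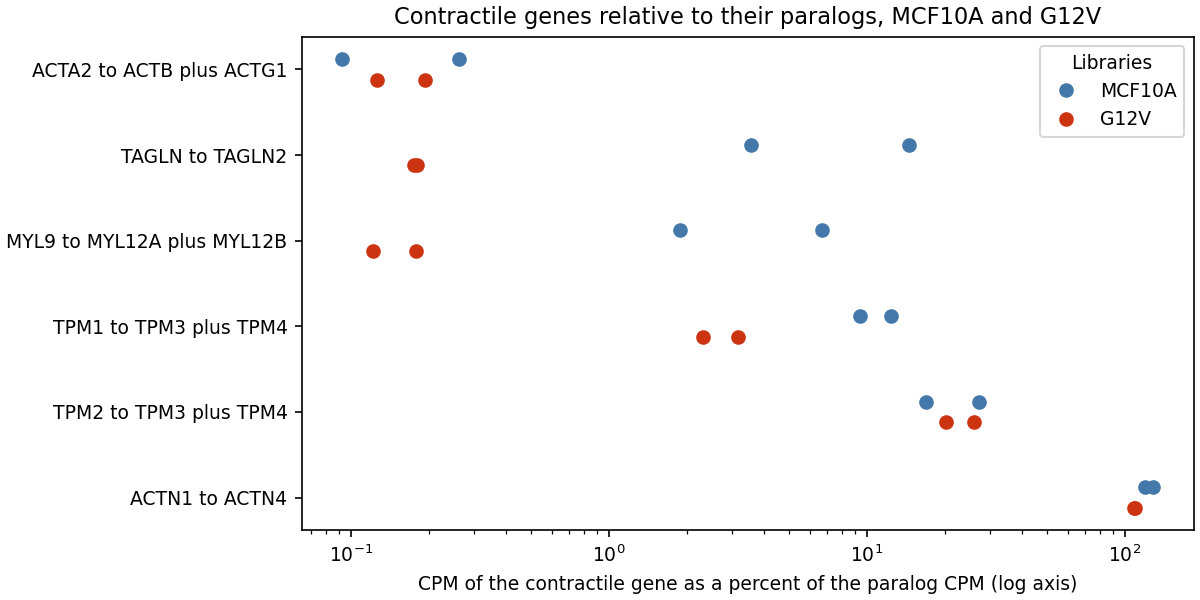
CPM of a contractile gene as a percent of the CPM of its paralogs (x axis, log scale) for 6 pairs (y axis) in 2 MCF10A and 2 G12V libraries; each point is a library. TAGLN falls from 14.5% and 3.54% of TAGLN2 to under 0.2%, while the points of ACTA2 and TPM2 overlap.

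Among 31 further genes of the pathway, 26 were tested, 1 rose and 2 fell, with a median log2 fold change of -0.15. The share called was near the 11.0% over all genes tested. The gene that rose is not reported here. MKL1, the SRF coactivator, fell from 71.4 and 67.1 CPM to 35.0 and 31.7 CPM (log2 fold change -1.05, edgeR adjusted p = 0.0186). MYH10, the heavy chain of nonmuscle myosin IIB, fell from 172 and 161 CPM to 95.8 and 76.1 CPM (log2 fold change -0.95, edgeR adjusted p = 0.0319). MKL2 (-0.66, adjusted p = 0.0725), the nonmuscle myosin IIA chain MYH9 (-0.84, adjusted p = 0.10) and SRF (-0.33, adjusted p = 0.370) had values below 0 without passing the edgeR test. MYOCD was at 0 in every library.

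Markers of the cell types that share these genes were read beside them. Of 9 myoepithelial and basal markers 6 fell (KRT5, KRT14, KRT17, TP63, CDH3 and NGFR) and MME rose, and the summed level of the list was 6441 to 8090 CPM in MCF10A and 1060 to 1463 CPM in G12V. KRT14 went from 402 and 423 CPM to 0.0855 and 0.134 CPM, and TP63 from 119 and 214 CPM to 0.214 and 0.0892 CPM. Of 6 general epithelial markers 4 fell (CDH1, EPCAM, CLDN4 and DSP; summed 1506 to 1860 CPM against 559 to 618 CPM), and of 5 tested luminal markers MUC1 and GATA3 fell (summed 3651 to 4632 CPM against 2516 to 2598 CPM). Of 6 tested stromal markers LUM rose (summed 823 to 1039 CPM against 1299 to 1705 CPM, with VIM most of it). The smooth-muscle list summed to 42.5 to 89.4 CPM in MCF10A and 106 to 120 CPM in G12V. Most of this was SMTN, at 80.3 and 34.5 CPM in MCF10A and 111 and 99.0 CPM in G12V. Of the 4 tested genes of the list 0 were called, with 2 log2 fold changes above 0 and 2 below. The defining genes of the list, MYH11, DES and LMOD1, were under 1 CPM in every library. Of the 2 leukocyte markers CD68 rose and PTPRC was at or near 0 (summed 12.1 to 12.4 CPM against 37.3 to 72.7 CPM), and endothelial markers summed to 1.68 to 3.68 CPM with 0 of 1 tested called. The part of these shifts in the fall of the contractile genes was not tested; in bulk RNA, fewer expressing cells and less RNA per cell cannot be told apart. CNN1 and MYH11, both used as markers of differentiated myoepithelium and smooth muscle, were thus at or near 0.

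The second comparison asks how the genes respond in the parental cells when p53 is activated for 4 h. By edgeR's test 0 of the 8 tested members were DE, against 0.170% of the 13529 genes tested (23 genes, with 463 at an unadjusted p under 0.05). By edgeR's exact test and by DESeq2 0 members were DE as well, and in the quasi-likelihood test 1 member, ACTA2, had an unadjusted p under 0.05. The median log2 fold change was 0.14 over the 8, against 0.0066 over all genes. CNN1 was at 0 in all 6 libraries.

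**Figure D4:**
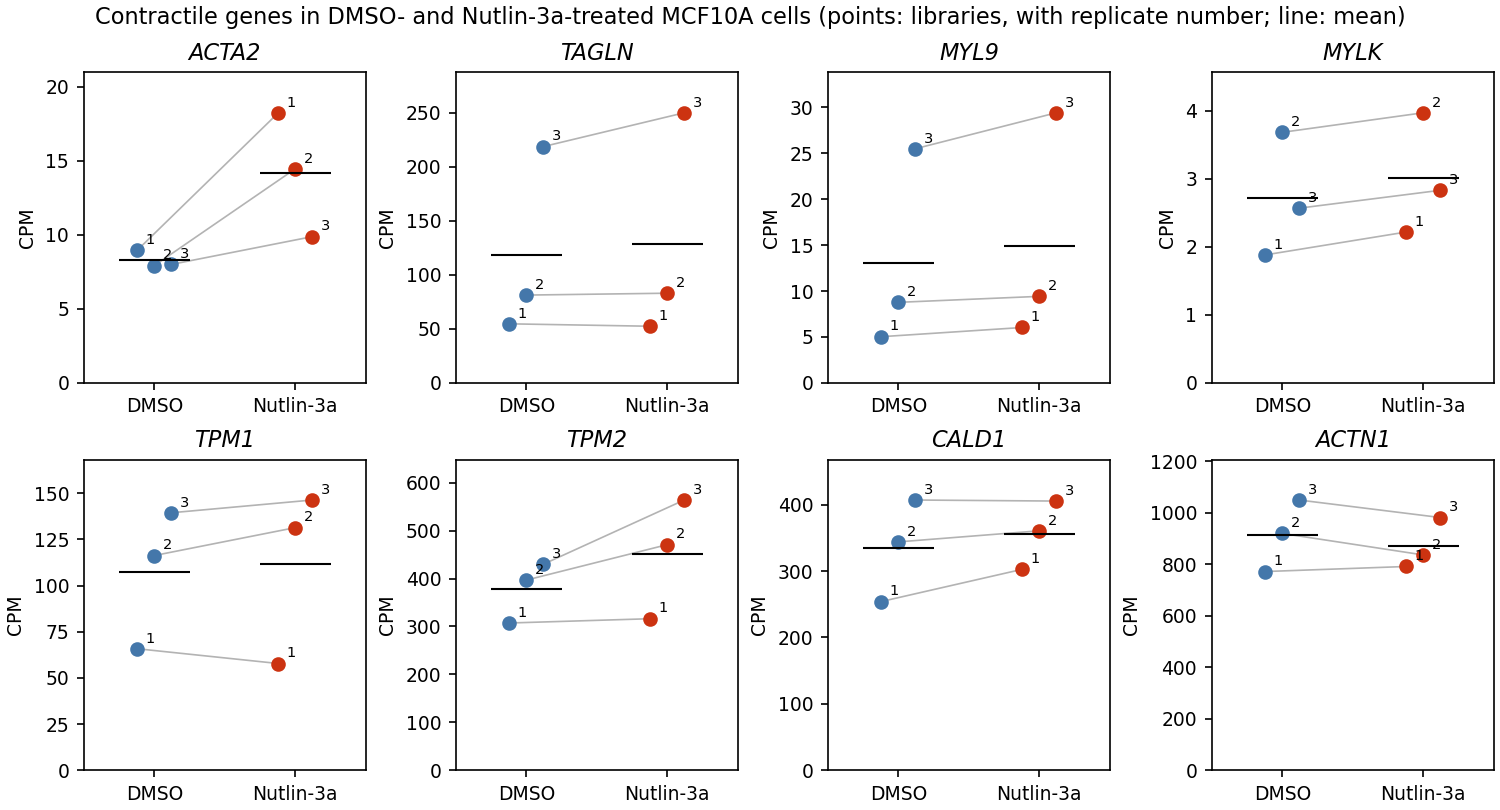
CPM (y axis, from 0, with its own scale for each gene) of the 8 tested contractile genes in 3 DMSO and 3 Nutlin-3a libraries; points are libraries with their replicate number, grey lines join libraries of the same number and black lines are group means. ACTA2 is higher in all 3 Nutlin-3a libraries, and for TAGLN and MYL9 replicate 3 is the highest under both treatments.

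ACTA2 was measured at 8.96, 7.92 and 7.99 CPM in DMSO and at 18.2, 14.4 and 9.87 CPM in Nutlin-3a. All 3 treated libraries were above all 3 controls, the one member of 8 without overlap, as were the groups of 8.07% of all genes in either direction. Its log2 fold change was 0.77 (SE 0.23, unadjusted p = 0.00918, edgeR adjusted p = 0.751). With the replicate number as a block, which the libraries' shared deviations allow, it was 0.75 (SE 0.15, adjusted p = 0.0204), and ACTA2 was the 1 member DE where 1.22% of all genes (165) were. FAS, whose first exons lie against the 5′ end of ACTA2, stood at 65.1, 70.1 and 88.3 CPM in DMSO and at 130, 130 and 155 CPM in Nutlin-3a (log2 fold change 0.89, adjusted p = 0.0806, and 5.6e-05 with the block). Whether the counting used strand is not given in the sources used here, so reads of the shared bases cannot be told apart. In G12V cells FAS had a log2 fold change of -0.24 (edgeR adjusted p = 0.474).

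The other members had log2 fold changes of -0.07 to 0.25. TAGLN was at 54.7, 81.2 and 219 CPM in DMSO and at 52.4, 83.0 and 250 CPM in Nutlin-3a (0.12, SE 0.64). MYL9 was at 5.03, 8.77 and 25.5 CPM in DMSO and at 6.04, 9.43 and 29.4 CPM in Nutlin-3a (0.19, SE 0.69). For both genes the SE was far above the difference, since the libraries of a group were several-fold apart. These SE are of the fit without the replicate block, which counts differences between the numbers as spread. Libraries of the same number lay much closer together in both genes. With the block, neither gene was called. TPM2 was at 307, 397 and 430 CPM in DMSO and at 316, 471 and 564 CPM in Nutlin-3a (0.25, SE 0.22). TPM1 was at 65.8, 116 and 139 CPM in DMSO and at 57.8, 131 and 146 CPM in Nutlin-3a (0.06, SE 0.36). These groups overlapped. CALD1 ranged from 254 to 407 CPM in DMSO and from 303 to 406 CPM in Nutlin-3a, ACTN1 from 771 to 1049 and from 791 to 981 CPM, and MYLK from 1.88 to 3.68 and from 2.22 to 3.97 CPM, each overlapping.

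None of 15 tested paralogs and none of 25 tested pathway genes was DE with or without the replicate block. MYLK4 had the lowest log2 fold change of the paralogs, -0.87 (edgeR adjusted p = 1.00). SRF was at 106, 154 and 159 CPM in DMSO and at 92.9, 145 and 158 CPM in Nutlin-3a. The ratio of ACTA2 to ACTB plus ACTG1 was 0.0622% to 0.0780% in DMSO and 0.0787% to 0.182% in Nutlin-3a, without overlap (log2 difference 0.80, two-sided exact permutation p = 0.1, the smallest that 3 against 3 libraries can give, adjusted 0.70 over 7 ratios). The other 6 ratios overlapped between treatments. The myoepithelial and basal list summed to 3362 to 5733 CPM in DMSO and 3637 to 6173 CPM in Nutlin-3a. Of the tested genes of that list (7), the luminal (5), epithelial (6), stromal (4) and smooth-muscle (4) lists, 0 were called, and no endothelial or leukocyte marker was tested.

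For 7 of the 8 members, ACTA2 being the exception, the range over the replicate numbers exceeded the size of the treatment difference. This comparison was chosen after the values were seen, and its share over all genes was not computed. A range is not the same measure as a difference between groups. Over all genes too, the median range (0.32) was above the median absolute treatment log2 fold change (0.10 with the replicate block). TAGLN was at 219 and 250 CPM in the replicates numbered 3 and at 52.4 to 83.0 CPM in the other 4 libraries. MYL9 showed the same pattern, at 25.5 and 29.4 CPM against 5.03 to 9.43 CPM. TPM1 was lowest in the replicates numbered 1, at 65.8 and 57.8 CPM against 116 to 146 CPM. In edgeR's fit with the treatment as the other term, 6 of the 8 members differed between numbers at an adjusted p under 0.05 and a range over 0.5 on the log2 scale, against 16.7% of all genes (2256). The median range was 0.78 over the 8 members and 0.32 over all genes.

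The range was 2.31 for MYL9 (adjusted p = 1.2e-06), 2.13 for TAGLN (adjusted p = 1.3e-07), 1.21 for TPM1 (adjusted p = 3.7e-05), 0.90 for MYLK (adjusted p = 0.0333), 0.66 for TPM2 (adjusted p = 0.00173) and 0.55 for CALD1 (adjusted p = 0.00399), all on the log2 scale. ACTA2 (0.55, adjusted p = 0.0951) and ACTN1 (0.38, adjusted p = 0.0219) were not called. ACTA2 ran the other way, its highest library under each treatment being number 1. Of 15 paralogs 4 were called, among them ACTG1 (0.59), CNN2 (0.55) and CNN3 (0.63), and of 25 pathway genes 7, among them SRF (0.68). Of 7 myoepithelial and basal markers 6 were called, of 6 epithelial 4, of 5 luminal 2, of 4 stromal 2 and of 4 smooth-muscle markers 2. The labels do not say what a number stands for. Within each treatment alone, the highest TAGLN library stood at 4.00 times the lowest in DMSO and 4.77 times in Nutlin-3a. Of the genes with a mean of at least 5 CPM in that treatment, 0.494% and 0.436% exceeded these ratios. The corresponding MYL9 ratios were 5.06 and 4.87. In G12V cells the TAGLN libraries differed by 1.04 times.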

How the data were processed

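RNA was poly(A)-selected and sequenced in 10 libraries of MCF10A cells. Per the labels and the study's methods, TopHat aligned the reads to hg19 and HTSeq counted reads in genes, and the authors deposited these raw counts in 1 table per experiment; the annotation, strand and overlap settings are not given in the sources used here. Both tables were filtered, scaled and tested separately, and 0 other per-sample columns were left unused. Libraries held 15453226 to 23683975 counts.

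Genes were matched by symbol. edgeR 4.0.16 in R 4.3.3 (filterByExpr, TMM factors, glmQLFit and glmQLFTest, prior count 0.125) gave log2 fold changes, SE and Benjamini-Hochberg p adjusted over all genes tested. The code was tested on simulated data. CPM uses TMM-scaled library sizes. DESeq2 1.42.0, edgeR's exact test, other scalings, filters and a prior count of 2, a replicate block and leaving out each library were the alternatives. Ratios were tested with scipy 1.17.1. Levels per kilobase use MANE Select transcripts of GENCODE, not the authors' annotation. Named were all 9 members, listed genes that were DE except 1, the fixed broadly expressed paralogs and regulators, some of the genes overlapping a member, and HRAS, CDKN1A, MDM2 and FAS. The exception, the pathway gene that rose, is not reported here. Members and the lists (paralogs, pathway, myoepithelial and basal, luminal, epithelial, stromal, smooth-muscle, endothelial and leukocyte markers) were chosen with earlier results of these data known.

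In the Nutlin-3a experiment, libraries of the same number deviated together from their group means (r = 0.62, 0.60 and 0.64 over 13529 genes), so the numbers were taken as pairs. For other numbers r was -0.47 to -0.19. Deviations from a group mean cancel out within the group, so negative values there follow from the positive ones and are no separate evidence of pairing. The study speaks of biological replicates without saying which libraries share a culture, so p-values measure the spread between these libraries, which may be technical.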

Additional observations from a re-analysis of the deposited data

How the results depend on the processing

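Of the results for G12V cells, the falls of TAGLN, MYL9 and TPM1 were called under each alternative other than leaving out MCF10A replicate 1; leaving out 1 library leaves a group of 1, whose spread is then taken from the other group. Over the libraries left out, the members DE numbered 0 to 4, the paralog and pathway genes DE 0 to 7 (2 without G12V replicate 2) and all genes DE 0 to 2129. The replicate number as a block, which 2 pairs (r = 0.50) do not establish as a pairing, gave 5 members with MYLK added, 12 paralog and pathway genes and 4158 genes in all, and edgeR's exact test gave 2536 genes. ACTA2 turned to 0.013 with library totals alone, 0.0058 with a filter of 1 CPM and 0.020 with the block, and ACTN1 to 0.0012 with that filter. Leaving out libraries gave -0.38 to 0.51 for ACTA2, -0.25 to 0.26 for ACTN1, and log2 ratios of -0.75 to 0.75 for ACTA2 to ACTB plus ACTG1 and -0.24 to 0.44 for TPM2 to TPM3 plus TPM4. The cause was not tested. MYH10 was not called with library totals alone, and MYH9 and MKL2 were called by the exact test. With the replicate block for Nutlin-3a, 1 member (ACTA2) was DE. Over all genes, the 23 DE became 84 by the exact test, 87 by DESeq2, 99 with no filter, 165 with the replicate block and 7 to 11 with 1 library left out. FAS was called by the exact test, DESeq2, the unfiltered fit and the block. The fits that left out a library had no replicate block, so the number of that library then stood in only 1 group. Their ranges therefore also hold the differences between replicate numbers. Leaving out libraries gave -0.81 to 0.92 for TAGLN, -0.76 to 1.12 for MYL9, -0.10 to 0.43 for MYLK, -0.19 to 0.37 for TPM1, -0.076 to 0.25 for CALD1, -0.18 to 0.042 for ACTN1 and -0.25 to 0.12 for SRF, and log2 ratios of -0.56 to 0.50 for TAGLN, -0.36 to 0.83 for MYL9, -0.22 to 0.40 for TPM1 to TPM3 plus TPM4 and -0.095 to 0.024 for ACTN1. Differences between replicate numbers were called for 5 to 7 members under 6 added alternatives, and for 1457 of all genes by DESeq2's likelihood-ratio test. The 11 and 20 counts of MYL9 in G12V limit the precision of its level there.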
